A study of Mus musculus with 15 samples.

Results

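The DNA replication machinery was followed as a set of 48 genes picked by name for the step of replication at which their products act. All 48 were among the 11262 genes of a table of naïve and 24 h activated mouse CD8 T cells and among the 11211 genes of a second table of cytotoxic T lymphocytes (CTL). RNA sequencing was done on 15 libraries in 5 groups of 3 biological replicates, and every mouse carried the LCMV-P14 TCR transgene, so that the CD8 T cells of all groups recognised the gp33-41 peptide of lymphocytic choriomeningitis virus. Naïve cells were sorted from lymph nodes by the phenotype DAPI- TCRβ+ CD8+ CD62Lhi CD44lo. For TCR activation the lymph node cells received that peptide at 100 ng/ml, with IL-2 at 20 ng/ml and IL-12 at 2 ng/ml, and CD8+ cells were sorted after 24 h. The PI3Kdi group had the same peptide and cytokines plus 10 µM IC87114, an inhibitor of the PI3K catalytic subunit p110δ, for the whole 24 h. For these 3 conditions each replicate pooled the lymph node cells of 3 female mice, 9 to 13 weeks old, and was divided between the conditions, so same-numbered libraries share a pool. CTL were activated for 48 h, expanded for 4 days in IL-2 at 20 ng/ml and washed on day 6. They were then put back into IL-2 or left without IL-2 for 24 h. The labels of the CTL libraries name no inhibitor, and the age of their mice was not given in the sources used here. In the IL-2 arm, the treatment labels of replicates 2 and 3 carry the names of different interleukins, so the titles set the group.

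Replication of the genome begins at origins, where the origin recognition complex (ORC) with CDC6 and CDT1 loads the MCM2-7 rings in G1. Kinases and the cofactors CDC45, GINS and MCM10 turn the rings into moving helicases in S phase, and polymerases, the sliding clamp PCNA and its loader RFC then copy both strands. Naïve T cells are quiescent, antigen drives them into rapid rounds of division, and many replication genes are textbook targets of E2F factors, which are released when the RB protein is phosphorylated on the way into S phase. In RNA from whole populations, a larger share of cycling cells and more mRNA per cycling cell cannot be told apart.

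The bases upstream of 4 members are shown because they span the responses described below. Mcm6 holds the most E2F-type letters of the MCM genes with a RefSeq window, Chaf1a rose by a large factor and Mcm10 by the largest, and Orc5 had the smallest response to activation. The choice was made after the values were seen, and only bases outside annotated exons and outside the RefSeq span of the gene are given. The sequences are the RefSeq promoter entries of GRCm38.p6 (mm10 coordinates), written 5′ to 3′ on the strand of the gene and ending at or before its start. Capitals mark E2F-type motifs on either strand, which were searched as TTCCCGC, then as TTCGCGC, then as TTGCCGC and then as TTGGCGC.
Mcm6, minus strand, chr1:128359706-128359955: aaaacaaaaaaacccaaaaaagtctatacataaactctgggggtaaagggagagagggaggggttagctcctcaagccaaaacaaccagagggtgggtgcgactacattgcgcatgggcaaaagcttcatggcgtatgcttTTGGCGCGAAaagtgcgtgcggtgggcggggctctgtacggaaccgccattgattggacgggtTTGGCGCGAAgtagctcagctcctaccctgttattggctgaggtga
Chaf1a, plus strand, chr17:56040166-56040415: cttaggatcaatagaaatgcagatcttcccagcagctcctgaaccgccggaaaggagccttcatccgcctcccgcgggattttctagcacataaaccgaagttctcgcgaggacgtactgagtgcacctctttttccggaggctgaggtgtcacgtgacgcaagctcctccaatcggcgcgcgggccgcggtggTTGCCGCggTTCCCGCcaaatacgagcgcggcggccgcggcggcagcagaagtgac
Mcm10, minus strand, chr2:5012792-5013041: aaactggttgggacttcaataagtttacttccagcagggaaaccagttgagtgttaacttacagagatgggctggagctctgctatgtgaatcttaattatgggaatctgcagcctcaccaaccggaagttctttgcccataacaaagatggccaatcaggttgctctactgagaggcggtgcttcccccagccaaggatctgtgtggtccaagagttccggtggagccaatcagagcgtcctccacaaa
Orc5, minus strand, chr5:22550473-22550588: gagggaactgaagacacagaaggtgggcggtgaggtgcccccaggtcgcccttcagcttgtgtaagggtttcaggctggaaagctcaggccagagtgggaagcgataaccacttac
Mcm6 carried 4 matches at 2 places, because each capital run of 10 bases reads as a match on both strands. Chaf1a carried 2 matches within 56 bases of its start, while the bases shown of Mcm10 and Orc5 carried none. RefSeq windows were found for 39 of the 48 genes, and 15 of them (38.5%) held an E2F-type match in the 250 bases before the start. Of all 27025 mouse promoters of that length 7.97% held one, and 15.1% did of the 8404 promoters whose genes are in the first table. CCAAT, the motif of the NF-Y factor, was found in 53.8% of the members' windows, 34.5% of all promoters and 37.4% of those whose genes are in the first table. The CHR-type letters (TTTGAA, or in the other form TTCGAA) were found in 17.9%, 17.4% and 12.1%. These are matches of letters, not measured sites. The 15 members with an E2F-type match had a median log2 fold change after activation of 3.08 (range 0.85 to 7.73), and the 24 without one had 2.14 (0.32 to 8.76). For CCAAT these medians were 3.35 over 21 members with a match and 1.92 over 18 without, and for the CHR-type letters 3.18 over 7 and 2.40 over 32. On IL-2 withdrawal the medians with and without a match were -0.74 and -0.82 for the E2F-type motifs, -0.98 and -0.73 for CCAAT, and -1.33 and -0.76 for the CHR-type letters.

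Values are FPKM, fragments scaled by library size and by exon length as the authors deposited them, so levels can be compared between genes. A gene was counted as risen or fallen when limma gave an adjusted p below 0.05 and the difference was above 2-fold. Differences are given as log2 fold changes of FPKM + 0.1 with their standard error (SE), at 3 replicates a group. The SE is limma's moderated one. It uses the spread within groups over all libraries of a table, drawn towards a trend with intensity. P-values were adjusted over all genes of a table. The tables were normalised apart, and levels are not tested between them.

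The summed mRNA of the module was higher after activation, had nearly the same value with PI3Kdi and was lower when IL-2 was removed. The summed FPKM of the 48 genes was 773, 815 and 756 in the 3 naïve libraries, 4269, 4948 and 4737 after activation and 4869.8, 4585 and 4599 with PI3Kdi. In CTL it was 2658, 2671 and 2779.9 with IL-2 and 1714, 1529.5 and 1308 without it. The ratio of the mean sums was 5.95 for activated against naïve cells, 1.01 for PI3Kdi against TCR alone and 0.561 for CTL without against with IL-2. Ranked among all genes of their table, the members sat at a median percentile of 48.6 in naïve cells, 87.0 after activation, 86.9 with PI3Kdi, 77.0 in CTL with IL-2 and 66.3 without it.

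**Figure D1:**
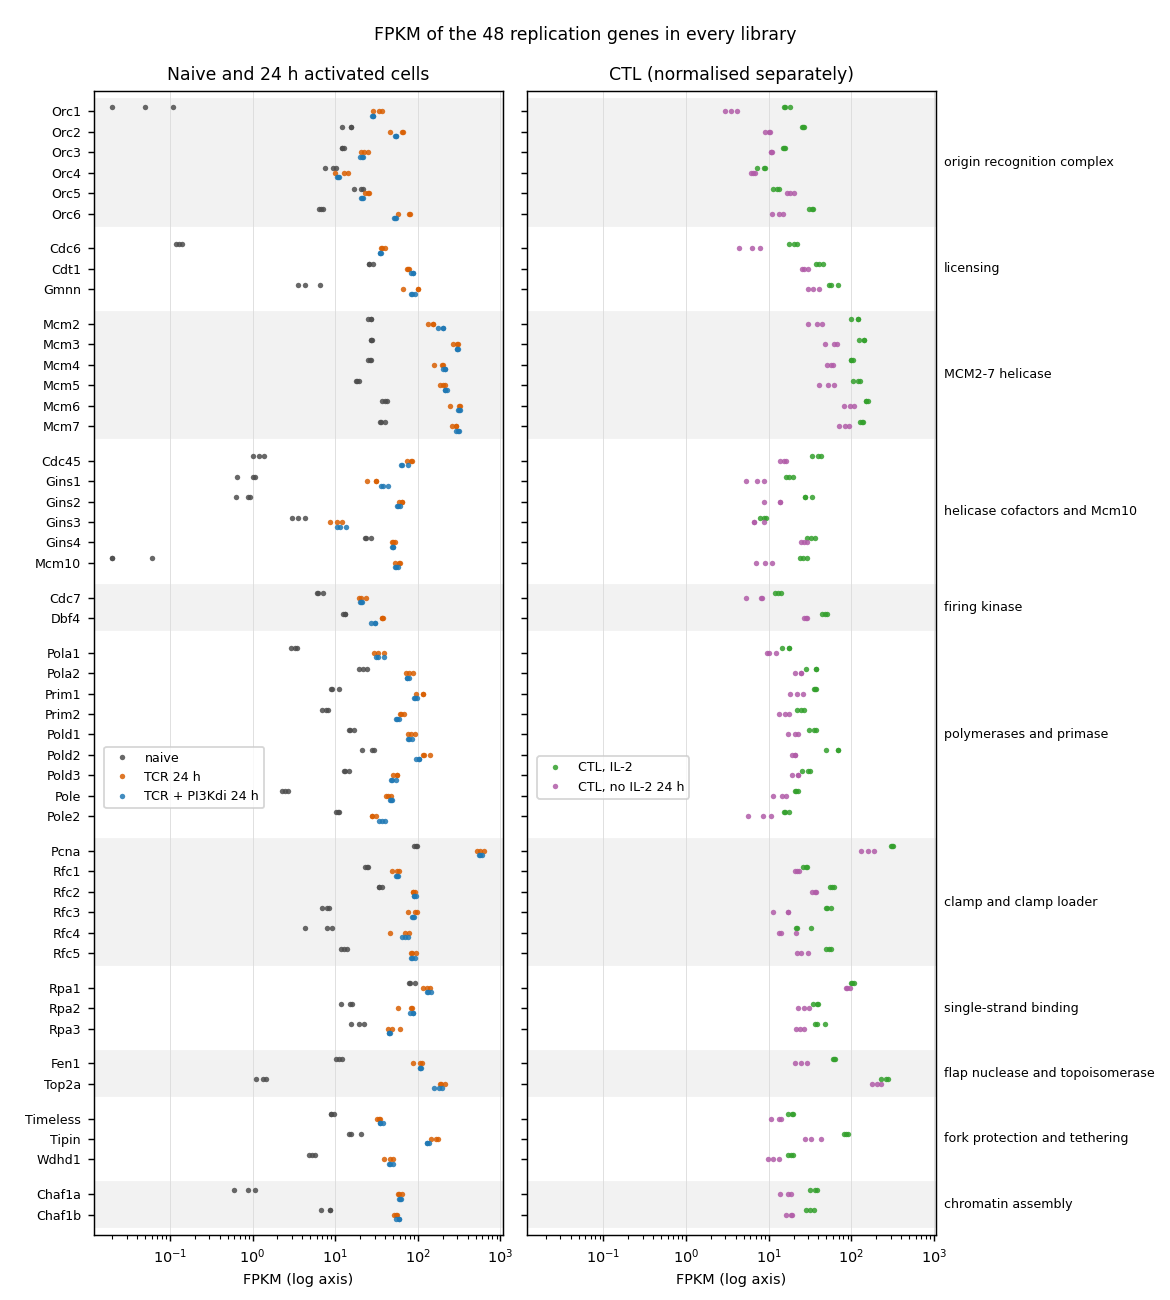
FPKM of each of the 48 genes in every library on a log axis, grouped by role, with naïve, TCR activated and PI3Kdi libraries on the left and CTL with or without IL-2 on the right. The activated and PI3Kdi points lie together and to the right of the naïve points for 44 genes by more than 2-fold, and Orc1, Cdc6 and Mcm10 are the members whose 3 naïve points lie near the left edge.

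TCR activated and naïve cells differed in peptide, IL-2, IL-12, 24 h of culture and the sorting gate, which cannot be told apart here. In this comparison 44 of the 48 members rose and 0 fell, while 25.0% of all genes rose and 23.7% fell. The median log2 fold change of the members was 2.77, against 0.01 over all genes. At an adjusted p below 0.05 with no fold limit all 48 were higher (40.9% of all genes), and in 47 the 3 activated libraries lay above the 3 naïve ones (40.7% of all genes). The 4 members under 2-fold were Orc3, Orc4, Orc5 and Rpa1. Medians by role ran from 1.42 for the RPA subunits and 1.43 for ORC to 5.42 for the helicase cofactors.

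With PI3Kdi against TCR alone, which asks what the inhibitor changes in activation, 0 of the 48 members rose and 0 fell. Over all genes 3.04% rose and 2.10% fell. At an adjusted p below 0.05 with no fold limit 2 members were higher, Mcm2 and Pole2 (9.35% of all genes), and 2 were lower, Orc6 and Dbf4 (8.19% of all genes). At an unadjusted p below 0.05 there were 4 higher and 4 lower, where all genes gave 16.1% and 15.4%. The PI3Kdi libraries lay wholly above the TCR libraries in 8 members (18.1% of all genes) and wholly below in 6 (18.6%). The median was -0.01, all estimates lay between -0.41 and 0.44, and the 95% intervals of single members reached from -0.69 to 0.83. Of the members 83.3% had an absolute log2 fold change under 0.25, and of all genes 58.9%.

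PI3Kdi treated cells set against naïve cells, the same naïve libraries as above, had 44 members higher and 0 lower, with 23.6% of all genes higher and 21.3% lower. The median was 2.87. At an adjusted p with no fold limit 46 were higher (40.1% of all genes), and the other 2 were Orc4 with a log2 fold change of 0.26 (SE 0.15, adjusted p = 0.12) and Orc5 with 0.10 (SE 0.10, adjusted p = 0.36). Per gene, the rise in FPKM above the naïve mean seen with PI3Kdi was a median of 99.8% of the rise seen without it over the 44 members that rose with TCR, with a range of 67% for Dbf4 to 144% for Pole2. In 36 of these 44 it was between 80% and 120%. Over all 48 members the median was 98.3%, with the lowest value, 28.6%, in Orc5. That median was 92% without replicate 1, 103% without replicate 2 and 101% without replicate 3.

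In CTL deprived of IL-2 for 24 h, 18 of the 48 members fell and 0 rose, while 13.9% of all genes fell and 14.3% rose. The median log2 fold change was -0.77, against 0.00 over all genes. At an adjusted p with no fold limit 46 were lower (36.6% of all genes) and 1, Orc5, was higher (35.2%), and Gins3 did not pass. The 3 deprived libraries lay below the 3 with IL-2 in 46 members (38.5% of all genes) and above them in Orc5 (37.6%). Most members thus passed the test with differences under 2-fold.

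**Figure D2:**
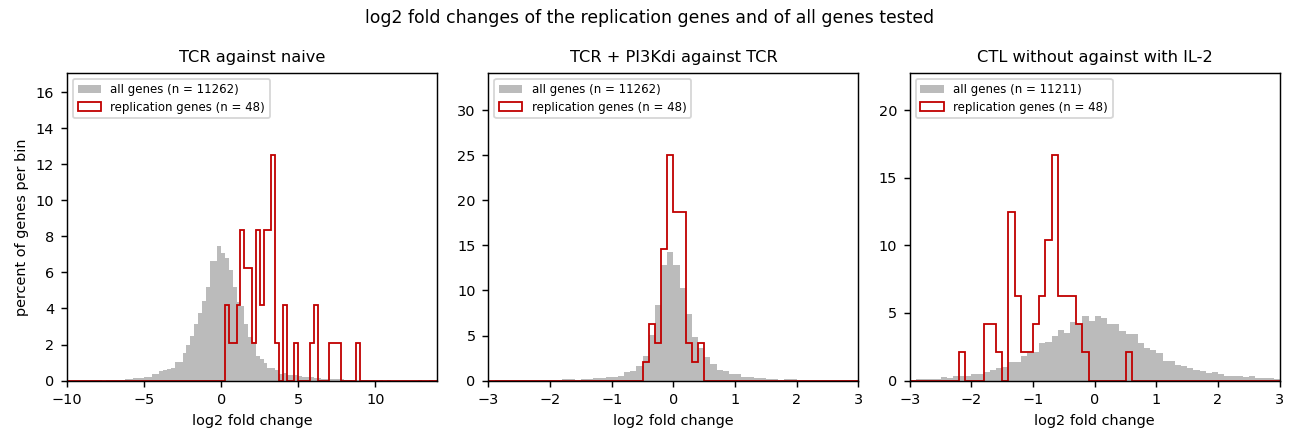
Distribution of log2 fold changes in 3 comparisons, with all genes as grey bars and the 48 replication genes as a red outline, each as percent of genes per bin. The red outline lies to the right of the grey centre after activation (median 2.77 against 0.01), on it with PI3Kdi (median -0.01) and to the left after IL-2 withdrawal (median -0.77 against 0.00). The middle and right panels leave out the 0.293% and 2.17% of genes beyond 3 in either direction.

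ORC binds origins through 6 subunits, of which Orc1 alone was near absent in naïve cells. The others were already present, at means from 6.74 FPKM for Orc6 to 19.7 for Orc5. Orc1, the largest subunit and an ATPase (chr4:108575705-108616030, mm10), was at 0.05, 0.02 and 0.11 FPKM in naïve cells, 28.7, 37.2 and 33.6 after activation and 28.8, 28.9 and 28.2 with PI3Kdi. It rose by 7.73 on the log2 scale (SE 0.19, adjusted p = 4.9e-11) with activation, and its log2 fold change with PI3Kdi against TCR alone was -0.20 (SE 0.19, adjusted p = 0.51). Its naïve values were so low that the estimate of the rise ran from 5.0 to 9.1 with the constant added before the logarithm and the other settings tried, always in the same direction. Orc5, another ATPase subunit (chr5:22486480-22550338), was at 20.6, 21.6 and 16.9 FPKM in naïve cells, 24.9, 25.5 and 23.1 after activation and 21.4, 20.4 and 21.5 with PI3Kdi. Its log2 fold change after activation was 0.32 (SE 0.10, adjusted p = 0.013), under 2-fold and the lowest of the module, and the 95% interval was 0.09 to 0.54. The naïve and activated libraries of Orc5 did not overlap, but they did so once PI3Kdi was present. Orc4 was at 10.2, 9.39 and 7.58 FPKM in naïve cells, 10.1, 14.1 and 12.9 after activation and 10.6, 10.7 and 11.04 with PI3Kdi, with a log2 fold change after activation of 0.44 (SE 0.15, adjusted p = 0.015). It was the only member in which a TCR library lay within the naïve range.

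Orc6 and Orc2 rose clearly and Orc3 stayed under 2-fold. Orc6, which is needed to load MCM2-7 (chr8:85299632-85308279), was at 7.17, 6.28 and 6.76 FPKM in naïve cells, 57.04, 79.7 and 78.6 after activation and 55.2, 52.6 and 52.1 with PI3Kdi. It rose by 3.38 on the log2 scale (SE 0.12, adjusted p = 6.9e-10) with activation, and its log2 fold change with PI3Kdi was -0.41 (SE 0.12, adjusted p = 0.041). Its 3 PI3Kdi libraries all lay below the 3 TCR libraries, but with the replicate number as a block the adjusted p was 0.059. Orc2 was at 15.4, 15.7 and 12.1 FPKM in naïve cells, 45.8, 63.8 and 66.7 after activation and 53.3, 54.8 and 53.7 with PI3Kdi and rose by 2.01 on the log2 scale (SE 0.14, adjusted p = 1.4e-07). Orc3 was at 12.2, 12.2 and 12.8 FPKM in naïve cells, 22.3, 24.7 and 20.2 after activation and 21.8, 21.2 and 20.1 with PI3Kdi, with 0.85 (SE 0.09, adjusted p = 6.0e-06) after activation and -0.09 (SE 0.09, adjusted p = 0.57) with PI3Kdi. All 6 ORC estimates with PI3Kdi were below 0, with a median of -0.19, as were 5733 of all 11262 genes. Of the 6, 1 passed the adjusted p, where 8.19% of all genes were lower. The ratio of the ORC sums for PI3Kdi over TCR was 1.01 in the first pool of mice, 0.770 in the second and 0.794 in the third.

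IL-2 withdrawal moved the ORC subunits unequally as well. Orc1 was at 15.9, 15.3 and 18.01 FPKM in CTL with IL-2 and 4.15, 3.54 and 2.94 without it, and it fell by 2.19 on the log2 scale (SE 0.14, adjusted p = 1.1e-06), the largest fall of the module. Orc2 was at 26.2, 25.5 and 26.5 FPKM in CTL with IL-2 and 10.2, 10.3 and 9.13 without it and fell by 1.39 on the log2 scale (SE 0.09, adjusted p = 1.1e-06). Orc6 was at 34.1, 30.5 and 32.99 FPKM in CTL with IL-2 and 14.8, 13.3 and 10.9 without it and fell by 1.33 on the log2 scale (SE 0.12, adjusted p = 7.6e-06). These 3 subunits were also the 3 that rose on activation. Orc3 was at 14.9, 15.5 and 15.6 FPKM in CTL with IL-2 and 11.1, 10.6 and 10.7 without it, with a log2 fold change of -0.50 (SE 0.08, adjusted p = 4.9e-04). Orc4 was at 9.09, 7.25 and 8.89 FPKM in CTL with IL-2 and 6.77, 6.51 and 6.12 without it, with -0.37 (SE 0.12, adjusted p = 0.02). Orc5 alone had all 3 deprived libraries above those with IL-2, at 13.4, 11.4 and 12.6 FPKM in CTL with IL-2 and 20.3, 18.02 and 16.5 without it, with 0.55 (SE 0.11, adjusted p = 0.0013). Ordered by level, Orc5 was the highest and Orc1 the lowest subunit both in naïve cells, at 19.7 and 0.06 FPKM, and in CTL without IL-2, at 18.3 and 3.54 FPKM. With activation Orc6 was highest, at 71.8 FPKM, and Orc4 lowest, at 12.3 FPKM. Exons of Orc1, Orc2, Orc4 and Orc6 overlap genes on the opposite strand and those of Orc5 another gene model on its own strand in GENCODE, and reads of the overlap could not be assigned here, since the strand setting of the counting was not given in the sources used here.

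**Figure D3:**
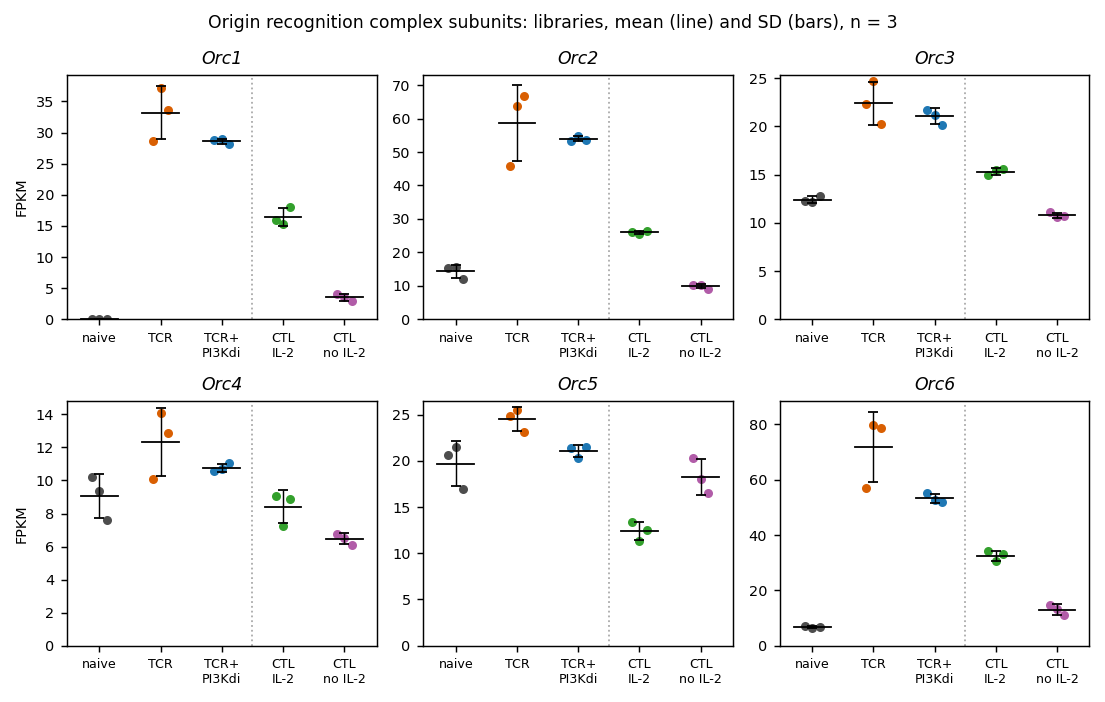
FPKM of the 6 ORC subunits, one panel each, with the 3 libraries of each group as points, the mean as a line and the SD as bars, and a dotted line between the separately normalised tables. Orc1, Orc2 and Orc6 rise from naïve to activated cells and fall with IL-2 withdrawal, while Orc5 lies within 16.9 to 25.5 FPKM in the first table and is higher without IL-2 than with it.

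The 3 licensing factors, which decide whether an origin may load MCM2-7, all rose on activation. CDC6, the ATPase that joins ORC to recruit the rings (chr11:98907709-98923942), had mRNA at 0.13, 0.14 and 0.12 FPKM in naïve cells, 35.9, 40.1 and 37.04 after activation and 36.2, 34.6 and 34.4 with PI3Kdi. It rose by 7.36 on the log2 scale (SE 0.11, adjusted p = 2.0e-12), with estimates of 5.10 to 8.07 over the settings tried, and with PI3Kdi its log2 fold change was -0.10 (SE 0.11, adjusted p = 0.56). Cdt1, whose product brings the MCM rings, was already expressed, at 25.8, 25.8 and 28.4 FPKM in naïve cells, 76.1, 73.4 and 77.8 after activation and 88.3, 83.6 and 87.2 with PI3Kdi. It rose by 1.51 on the log2 scale (SE 0.07, adjusted p = 5.9e-09), and with PI3Kdi it had 0.19 (SE 0.07, adjusted p = 0.1), all PI3Kdi libraries lying above the TCR ones. Gmnn, encoding geminin, which inhibits CDT1, was at 4.26, 6.58 and 3.51 FPKM in naïve cells, 66.5, 101 and 99.9 after activation and 91.7, 81.95 and 84.3 with PI3Kdi and rose by 4.22 on the log2 scale (SE 0.21, adjusted p = 8.2e-09). The inhibitor's log2 fold change for Gmnn was -0.03 (SE 0.21, adjusted p = 0.94).

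Without IL-2 the licensing genes were all lower, Cdc6 by the most. Cdc6 was at 17.6, 20.4 and 22.1 FPKM in CTL with IL-2 and 7.78, 6.25 and 4.4 without it and fell by 1.72 on the log2 scale (SE 0.19, adjusted p = 3.0e-05). Cdt1 was at 36.98, 45.4 and 40.5 FPKM in CTL with IL-2 and 29.8, 26.8 and 25.1 without it, with a log2 fold change of -0.59 (SE 0.10, adjusted p = 5.8e-04). Gmnn was at 69.98, 54.1 and 56.2 FPKM in CTL with IL-2 and 40.7, 34.03 and 30.2 without it, with -0.78 (SE 0.13, adjusted p = 4.7e-04). The groups did not overlap in any of the 3 genes, an order seen in 38.5% of all genes, and Cdt1 and Gmnn were under 2-fold.

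The MCM2-7 genes, encoding the 6 subunits of one ring, rose within a narrow span of 2.47 to 3.43 on the log2 scale. Their summed FPKM was 173, 182 and 171 in naïve cells, 1241, 1473 and 1462 after activation and 1589, 1525 and 1512 with PI3Kdi. Mcm5 (chr8:75109468-75128439) was at 19.2, 18.01 and 18.5 FPKM in naïve cells, 188, 203 and 212 after activation and 225, 213 and 212 with PI3Kdi and rose by 3.43 on the log2 scale (SE 0.07, adjusted p = 2.2e-11), the largest of the 6. Mcm2 (chr6:88883474-88898780) was at 25.1, 27.1 and 26.9 FPKM in naïve cells, 131, 155 and 154 after activation and 203, 202 and 175 with PI3Kdi and rose by 2.47 on the log2 scale (SE 0.09, adjusted p = 7.7e-10), the smallest. Mcm2 was then further above in the PI3Kdi libraries, by a log2 fold change of 0.40 (SE 0.09, adjusted p = 0.013), without overlap with TCR alone. Mcm3 was at 27.04, 26.9 and 27.9 FPKM in naïve cells, 266, 304 and 297 after activation and 306, 296 and 297 with PI3Kdi, rising by 3.4 on the log2 scale (SE 0.07, adjusted p = 2.4e-11) and having 0.05 (SE 0.07, adjusted p = 0.66) with PI3Kdi. All 6 estimates with PI3Kdi were above 0, from 0.05 to 0.40, and 1 passed the adjusted p, where 9.35% of all genes were higher. In 4 of the 6, Mcm2, Mcm4, Mcm5 and Mcm7, the PI3Kdi libraries lay wholly above the TCR libraries. Such an order was seen in 18.1% of all genes and 16.7% of the 48 members. Replicate 1 of the TCR group held the lowest sum of the 3, and the ratio of the MCM2-7 sums for PI3Kdi over TCR was 1.28 in the first pool of mice, 1.04 in the second and 1.03 in the third. Without replicate 1 of every group the 6 estimates ran from -0.02, for Mcm3 and Mcm6, to 0.29 for Mcm2. Without replicate 1 of the TCR group alone the median of all 48 members with PI3Kdi was -0.04.

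The ratio of the highest to the lowest subunit level stayed small, at 2.14 in naïve cells, 1.99 after activation and 1.63 with PI3Kdi, and Mcm6 was the highest subunit in each. In CTL the summed FPKM was 717, 773 and 785 with IL-2 and 435, 389.8 and 322 without, and the ratio of highest to lowest was 1.52 and 2.54. All 6 subunits were lower without IL-2 at an adjusted p below 0.05 (36.6% of all genes), and 3 fell by more than 2-fold (13.9%). Mcm2 was at 101, 122 and 122 FPKM in CTL with IL-2 and 44.2, 38.6 and 29.8 without it and fell by 1.62 on the log2 scale (SE 0.14, adjusted p = 6.9e-06). Mcm3 was at 125, 141 and 143 FPKM in CTL with IL-2 and 67.9, 60.9 and 48.4 without it and fell by 1.22 on the log2 scale (SE 0.12, adjusted p = 1.7e-05). Mcm5 was at 104, 122 and 127 FPKM in CTL with IL-2 and 61.05, 51.8 and 40.6 without it and fell by 1.21 on the log2 scale (SE 0.14, adjusted p = 4.6e-05), but without replicate 3 of both CTL groups it was no longer past the limit. Mcm6 and Mcm7 moved least. Mcm6 was at 159.6, 151 and 151 FPKM in CTL with IL-2 and 108, 97.5 and 80.6 without it, with -0.70 (SE 0.11, adjusted p = 2.4e-04), and Mcm7 at 128, 137 and 136 FPKM in CTL with IL-2 and 93.3, 83.9 and 71.5 without it, with -0.70 (SE 0.10, adjusted p = 1.7e-04). Mcm2 was the lowest or next to lowest subunit in 4 of the 5 groups. Mcm7 shares exonic sequence with Ap4m1 and Cops6 on the opposite strand.

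The helicase cofactors held the steepest rises. Mcm10, which helps the helicase start and links it to polymerase α (chr2:4990724-5012791), was at 0.02, 0.06 and 0.02 FPKM in naïve cells, 53.4, 60.2 and 58.6 after activation and 58.2, 55.2 and 53.3 with PI3Kdi. It rose by 8.76 on the log2 scale (SE 0.13, adjusted p = 2.5e-12), the largest rise of the module, with 5.82 to 10.49 over the settings tried, and with PI3Kdi it had -0.04 (SE 0.13, adjusted p = 0.85). Cdc45, the helicase's partner protein (chr16:18780447-18811972), was at 1.19, 1.01 and 1.37 FPKM in naïve cells, 84.8, 82.8 and 74.4 after activation and 75.3, 63.8 and 62.96 with PI3Kdi. It rose by 5.98 on the log2 scale (SE 0.12, adjusted p = 1.5e-11), and with PI3Kdi its log2 fold change was -0.26 (SE 0.12, adjusted p = 0.16). The 4 GINS genes encode one tetramer but did not move alike. Gins2 was at 0.89, 0.94 and 0.63 FPKM in naïve cells, 58.9, 64.9 and 63.8 after activation and 60.2, 55.7 and 57.1 with PI3Kdi and rose by 6.1 on the log2 scale (SE 0.13, adjusted p = 2.1e-11). Gins1 was at 1.0, 0.64 and 1.06 FPKM in naïve cells, 24.03, 31.6 and 31.1 after activation and 43.5, 38.1 and 35.5 with PI3Kdi and rose by 4.87 on the log2 scale (SE 0.18, adjusted p = 6.9e-10). In Gins1 all 3 PI3Kdi libraries lay above the TCR ones, with the highest estimate of the module, 0.44 (SE 0.18, adjusted p = 0.12), which did not pass the adjusted p. Gins3 was at 3.58, 4.31 and 3.01 FPKM in naïve cells, 8.55, 10.6 and 12.1 after activation and 13.4, 10.5 and 11.5 with PI3Kdi and rose by 1.49 on the log2 scale (SE 0.17, adjusted p = 6.6e-06). Gins4 was at 23.04, 26.9 and 23.3 FPKM in naïve cells, 52.3, 49.1 and 49.7 after activation and 50.3, 48.8 and 49.7 with PI3Kdi and rose by 1.04 on the log2 scale (SE 0.08, adjusted p = 3.1e-07), which lies at the 2-fold limit and was 0.97 without replicate 1. In naïve cells Gins4 was thus far above Gins1 and Gins2 per length, and after activation Gins2 was above Gins4.

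**Figure D4:**
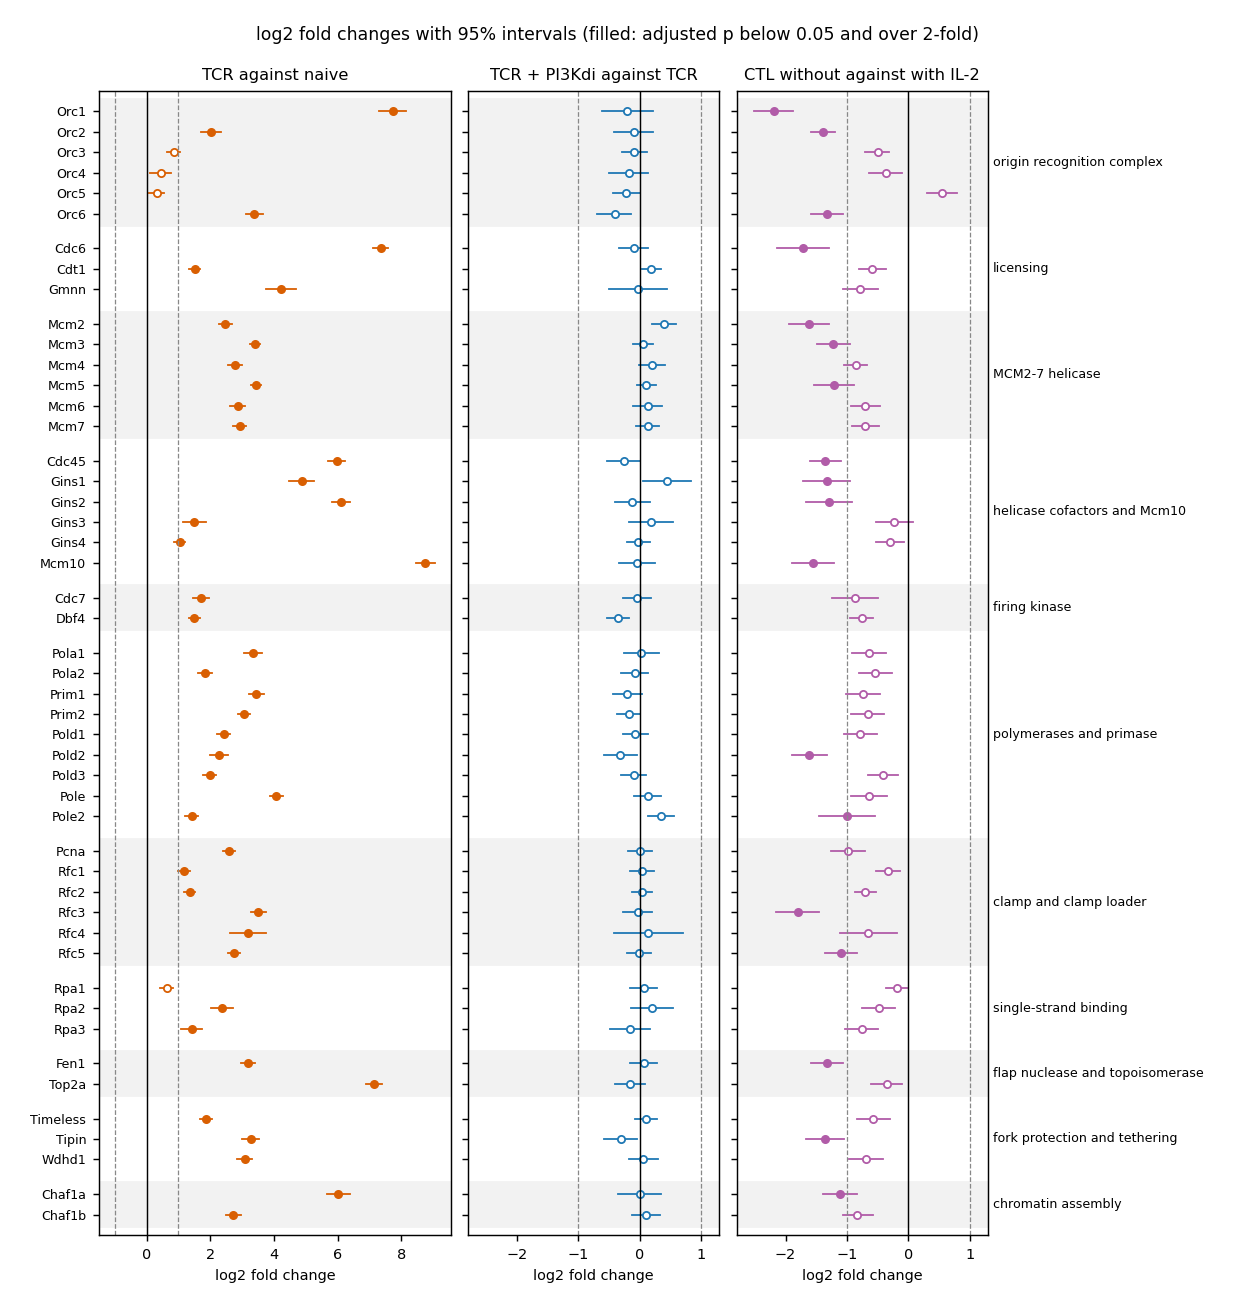
log2 fold changes of the 48 genes with 95% intervals for TCR against naïve, PI3Kdi against TCR and CTL without against with IL-2, filled where the adjusted p was below 0.05 with more than a 2-fold difference. In the left panel 44 points are filled, in the middle 0, with estimates between -0.41 and 0.44, and in the right 18, all to the left of 0, with Orc5 the only point to the right.

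Without IL-2, 4 of the 6 cofactor genes fell (13.9% of all genes). Mcm10 was at 24.2, 25.98 and 28.8 FPKM in CTL with IL-2 and 10.9, 9.15 and 6.97 without it and fell by 1.56 on the log2 scale (SE 0.15, adjusted p = 1.6e-05). Cdc45 was at 33.9, 39.3 and 43.5 FPKM in CTL with IL-2 and 16.4, 15.4 and 13.7 without it and fell by 1.35 on the log2 scale (SE 0.11, adjusted p = 5.1e-06). Gins1 was at 19.5, 17.6 and 16.4 FPKM in CTL with IL-2 and 8.87, 7.32 and 5.28 without it and fell by 1.33 on the log2 scale (SE 0.17, adjusted p = 8.9e-05). The GINS genes split again into the same pairs. Gins2 was at 27.2, 27.7 and 33.05 FPKM in CTL with IL-2 and 13.7, 13.6 and 8.84 without it and fell by 1.3 on the log2 scale (SE 0.17, adjusted p = 8.5e-05). Gins3 was at 9.19, 8.68 and 7.93 FPKM in CTL with IL-2 and 8.73, 6.68 and 6.63 without it, with -0.23 (SE 0.13, adjusted p = 0.14), the only member that did not pass the adjusted p. Gins4 was at 29.4, 36.8 and 32.4 FPKM in CTL with IL-2 and 28.8, 26.5 and 24.7 without it, with -0.30 (SE 0.10, adjusted p = 0.026). Cdc45 and Gins2 overlap exons of Ufd1 and Gse1 on the opposite strand.

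The firing kinase, CDC7 with its activator DBF4, phosphorylates MCM2-7 to start origins. Cdc7 was at 6.25, 5.96 and 7.17 FPKM in naïve cells, 23.9, 20.5 and 19.6 after activation and 20.02, 20.5 and 21.3 with PI3Kdi and rose by 1.71 on the log2 scale (SE 0.11, adjusted p = 5.0e-08). Dbf4 (chr5:8396969-8422725) was at 13.3, 12.4 and 13.2 FPKM in naïve cells, 37.4, 36.5 and 36.7 after activation and 30.1, 26.9 and 30.01 with PI3Kdi and rose by 1.5 on the log2 scale (SE 0.08, adjusted p = 1.4e-08). With PI3Kdi, Cdc7 had a log2 fold change of -0.05 (SE 0.11, adjusted p = 0.81) and Dbf4 of -0.35 (SE 0.08, adjusted p = 0.014). Dbf4 kept 67% of its TCR rise in FPKM, the least of the 44 members that rose, and its 3 PI3Kdi libraries all lay below the TCR ones. Dbf4 was at 43.8, 47.8 and 50.7 FPKM in CTL with IL-2 and 29.01, 28.2 and 26.4 without it, with -0.76 (SE 0.08, adjusted p = 3.1e-05). Cdc7 was at 13.04, 12.03 and 13.9 FPKM in CTL with IL-2 and 8.22, 8.05 and 5.3 without it, with -0.87 (SE 0.17, adjusted p = 0.0011). Both were lower under the 2-fold limit and without overlap (38.5% of all genes).

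The polymerase and primase genes all rose, from 1.42 to 4.08 on the log2 scale. Pole, the catalytic subunit of the leading strand polymerase ε (chr5:110286319-110337468), was at 2.46, 2.27 and 2.71 FPKM in naïve cells, 47.1, 42.96 and 40.7 after activation and 48.5, 47.8 and 46.1 with PI3Kdi and rose by 4.08 on the log2 scale (SE 0.10, adjusted p = 3.9e-11). Pole2, the second subunit of the same enzyme (chr12:69201773-69228205), was at 10.3, 11.1 and 10.8 FPKM in naïve cells, 27.8, 31.4 and 27.6 after activation and 36.9, 40.4 and 33.6 with PI3Kdi and rose by 1.42 on the log2 scale (SE 0.10, adjusted p = 8.3e-08), the least of the 9. With PI3Kdi, Pole2 had a log2 fold change of 0.35 (SE 0.10, adjusted p = 0.028), with no overlap, and its rise above naïve was 144% of that without the inhibitor. Pold2, a subunit of polymerase δ (chr11:5872180-5878256), was at 21.1, 27.8 and 29.5 FPKM in naïve cells, 141, 117 and 120.2 after activation and 104, 94.9 and 103 with PI3Kdi. It rose by 2.27 on the log2 scale (SE 0.12, adjusted p = 1.6e-08), and with PI3Kdi it had -0.32 (SE 0.12, adjusted p = 0.1), all libraries lying lower without passing the adjusted p. Pola1, the catalytic subunit of the primer-making polymerase α, was at 3.3, 3.44 and 2.9 FPKM in naïve cells, 29.4, 39.5 and 32.6 after activation and 38.96, 33.1 and 30.9 with PI3Kdi, rising by 3.35 on the log2 scale (SE 0.13, adjusted p = 1.1e-09) and having 0.02 (SE 0.13, adjusted p = 0.92) with PI3Kdi. The other 5, Pola2, Prim1, Prim2, Pold1 and Pold3, rose by 1.85 to 3.45 and lay between -0.20 and -0.07 with PI3Kdi.

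Of these 9 genes, 2 fell with IL-2 withdrawal (13.9% of all genes) and all 9 were lower at an adjusted p below 0.05 (36.6%). Pold2 was at 50.1, 69.95 and 69.2 FPKM in CTL with IL-2 and 20.7, 20.96 and 19.2 without it and fell by 1.62 on the log2 scale (SE 0.13, adjusted p = 3.7e-06). In the order of means it went from the highest of the 9 genes to below Pola2, Prim1, Pold3 and Pold1. Pole2 was at 15.9, 15.2 and 17.6 FPKM in CTL with IL-2 and 10.7, 8.62 and 5.65 without it, and its fall of 1.0 on the log2 scale (SE 0.20, adjusted p = 0.0014) lay at the limit, with an estimate of -0.69 without replicate 3 of both CTL groups. Pold3 moved least, at 25.2, 29.9 and 31.6 FPKM in CTL with IL-2 and 22.9, 22.6 and 19.4 without it, with -0.41 (SE 0.11, adjusted p = 0.0071). The polymerase δ subunits among the members thus ran from -1.62 for Pold2 to -0.78 for Pold1 and -0.41 for Pold3. Pold4, a further subunit of that enzyme that is not a member, rose by 1.45 on the log2 scale. The exons of Pole2 overlap another gene model on the same strand and those of Pole one on the opposite strand.

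The sliding clamp and its loader also rose in full. Pcna, the clamp that holds polymerases on DNA (chr2:132249286-132253180), was the most abundant member in the first table, at 97.6, 96.1 and 89.9 FPKM in naïve cells, 516, 631 and 564 after activation and 600.3, 559 and 553 with PI3Kdi. It rose by 2.59 on the log2 scale (SE 0.09, adjusted p = 5.2e-10), and with PI3Kdi its log2 fold change was 0.00 (SE 0.09, adjusted p = 0.98), with an interval of -0.19 to 0.20. Rfc3, a small loader subunit (chr5:151642817-151651208), was at 8.43, 6.83 and 8.0 FPKM in naïve cells, 76.8, 93.5 and 97.9 after activation and 86.96, 84.8 and 88.8 with PI3Kdi and rose by 3.51 on the log2 scale (SE 0.11, adjusted p = 2.1e-10). Rfc1, the large subunit, was at 24.99, 23.1 and 24.5 FPKM in naïve cells, 49.2, 59.01 and 55.2 after activation and 56.96, 56.7 and 54.1 with PI3Kdi and rose by 1.17 on the log2 scale (SE 0.08, adjusted p = 1.6e-07), the least of the 6. Rfc4 varied most between libraries, at 8.05, 9.09 and 4.3 FPKM in naïve cells, 46.3, 77.5 and 69.3 after activation and 75.5, 69.4 and 63.8 with PI3Kdi, rising by 3.19 on the log2 scale (SE 0.25, adjusted p = 3.7e-07) with 0.14 (SE 0.25, adjusted p = 0.75) under PI3Kdi. Rfc2 and Rfc5 rose by 1.35 and 2.75, and the 6 estimates with PI3Kdi lay between -0.03 and 0.14.

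Without IL-2 the loader subunits were lower to different extents. Rfc3 was at 49.5, 51.1 and 56.7 FPKM in CTL with IL-2 and 17.1, 17.3 and 11.2 without it and fell by 1.8 on the log2 scale (SE 0.16, adjusted p = 7.0e-06), the next largest fall of the module after Orc1. Rfc1 was at 28.7, 26.3 and 28.8 FPKM in CTL with IL-2 and 23.6, 22.2 and 20.7 without it, with -0.33 (SE 0.09, adjusted p = 0.0062). Pcna was at 319, 306 and 311 FPKM in CTL with IL-2 and 189, 160.1 and 129.9 without it, with -0.98 (SE 0.12, adjusted p = 7.2e-05), just under the limit, which it passed when replicate 1 or 2 of both CTL groups was left out. The highest loader subunit in CTL was Rfc2 in both groups, and Rfc3 went from above Rfc1 and Rfc4 to the lowest of the 5. Rfc5 fell by 1.09 on the log2 scale (SE 0.12, adjusted p = 2.6e-05), with -0.93 without replicate 3 of both CTL groups. Rfc2 and Rfc4 had -0.70 and -0.65. Exons of Rfc2, Rfc4 and Rfc5 overlap Lat2, Eif4a2 and Wsb2 on the opposite strand.

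RPA coats single-stranded DNA at the fork, and its subunits started higher in naïve cells than most of the module. Rpa1, the largest subunit, was at 80.9, 92.4 and 77.1 FPKM in naïve cells, 115, 142 and 129.7 after activation and 143, 129 and 133 with PI3Kdi, with a log2 fold change after activation of 0.63 (SE 0.10, adjusted p = 1.1e-04), under 2-fold. Rpa2 was at 14.96, 15.97 and 11.8 FPKM in naïve cells, 56.99, 82.6 and 84.8 after activation and 86.5, 80.3 and 87.4 with PI3Kdi and rose by 2.37 on the log2 scale (SE 0.15, adjusted p = 6.3e-08). Rpa3 was at 19.4, 22.5 and 15.4 FPKM in naïve cells, 43.4, 61.03 and 48.8 after activation and 44.3, 44.96 and 46.1 with PI3Kdi and rose by 1.42 on the log2 scale (SE 0.15, adjusted p = 3.4e-06). With PI3Kdi the 3 estimates were 0.07, 0.20 and -0.16, and none passed the adjusted p. In CTL none of the 3 fell by more than 2-fold, while 13.9% of all genes did. Rpa1 was at 108, 101 and 100.1 FPKM in CTL with IL-2 and 95.8, 87.9 and 87.1 without it, with -0.19 (SE 0.07, adjusted p = 0.042), and an adjusted p of 0.057 with the replicate number as a block. Rpa2 was at 39.1, 34.1 and 38.4 FPKM in CTL with IL-2 and 30.8, 26.9 and 22.5 without it, with -0.48 (SE 0.12, adjusted p = 0.0045). Rpa3 was at 47.8, 38.9 and 36.7 FPKM in CTL with IL-2 and 27.1, 23.9 and 21.6 without it, with -0.76 (SE 0.12, adjusted p = 3.5e-04). The groups did not overlap in any of the 3, an order seen in 38.5% of all genes.

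Fen1 and Top2a both rose on activation, and Fen1 alone of the pair fell by more than 2-fold when IL-2 was removed. Top2a, the topoisomerase that untangles copied chromosomes (chr11:98992947-99024199), was at 1.45, 1.32 and 1.1 FPKM in naïve cells, 192, 211 and 187 after activation and 194, 156 and 181 with PI3Kdi and rose by 7.15 on the log2 scale (SE 0.11, adjusted p = 3.2e-12). Fen1, the nuclease that trims Okazaki fragments (chr19:10199132-10204393), was at 10.3, 11.97 and 11.02 FPKM in naïve cells, 87.5, 114 and 105 after activation and 109, 106 and 105 with PI3Kdi and rose by 3.18 on the log2 scale (SE 0.10, adjusted p = 2.6e-10). With PI3Kdi they had -0.16 (SE 0.11, adjusted p = 0.39) and 0.07 (SE 0.10, adjusted p = 0.68). Top2a was at 278, 230.2 and 265 FPKM in CTL with IL-2 and 228, 204 and 176 without it, with a log2 fold change of -0.35 (SE 0.11, adjusted p = 0.018), under 2-fold. Fen1 was at 59.8, 62.4 and 64.05 FPKM in CTL with IL-2 and 29.2, 24.9 and 20.8 without it and fell by 1.33 on the log2 scale (SE 0.12, adjusted p = 7.6e-06). Top2a was the most abundant member without IL-2, a place that Pcna held in the other 4 groups. The exons of Fen1 overlap Tmem258 on the opposite strand.

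The fork protection genes rose with activation, Tipin the most. Tipin, whose product holds the TIMELESS complex at the fork (chr9:64281491-64305422), was at 15.7, 20.4 and 14.7 FPKM in naïve cells, 144, 177 and 168 after activation and 137, 128 and 127 with PI3Kdi and rose by 3.27 on the log2 scale (SE 0.12, adjusted p = 8.2e-10). Timeless was at 8.82, 9.66 and 8.91 FPKM in naïve cells, 33.5, 32.4 and 34.7 after activation and 34.97, 34.9 and 37.95 with PI3Kdi and rose by 1.87 on the log2 scale (SE 0.08, adjusted p = 2.8e-09). Wdhd1, encoding the protein that tethers polymerase α to the helicase, was at 5.72, 4.76 and 5.2 FPKM in naïve cells, 39.3, 45.7 and 49.6 after activation and 45.8, 44.2 and 49.95 with PI3Kdi and rose by 3.08 on the log2 scale (SE 0.11, adjusted p = 5.5e-10). All 3 PI3Kdi libraries of Tipin lay below the TCR ones, with -0.31 (SE 0.12, adjusted p = 0.1), which did not pass. Timeless had 0.10 (SE 0.08, adjusted p = 0.46) and Wdhd1 0.06 (SE 0.11, adjusted p = 0.75). Tipin was at 90.9, 82.2 and 87.4 FPKM in CTL with IL-2 and 42.6, 32.9 and 27.7 without it, and it fell by 1.36 on the log2 scale (SE 0.14, adjusted p = 1.9e-05). Timeless was at 17.4, 19.4 and 19.7 FPKM in CTL with IL-2 and 14.1, 13.3 and 10.7 without it, with -0.57 (SE 0.12, adjusted p = 0.0018), and Wdhd1 at 19.7, 17.2 and 18.7 FPKM in CTL with IL-2 and 13.4, 11.4 and 9.79 without it, with -0.69 (SE 0.12, adjusted p = 7.5e-04). Of the 3, Tipin alone passed the 2-fold limit in CTL.

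The chromatin assembly factor CAF-1 places histones on new DNA, and its large subunits differed in naïve cells. Chaf1a (chr17:56040416-56068026) was at 1.07, 0.88 and 0.59 FPKM in naïve cells, 59.2, 64.3 and 58.2 after activation and 60.01, 62.1 and 59.7 with PI3Kdi and rose by 6.03 on the log2 scale (SE 0.16, adjusted p = 8.1e-11). Chaf1b was at 6.77, 8.75 and 8.71 FPKM in naïve cells, 51.99, 56.1 and 53.7 after activation and 59.98, 58.9 and 54.98 with PI3Kdi and rose by 2.73 on the log2 scale (SE 0.10, adjusted p = 9.6e-10). Their levels differed 9.54 times in naïve cells and 1.12 times after activation. With PI3Kdi the estimates were 0.00 (SE 0.16, adjusted p = 0.99) and 0.10 (SE 0.10, adjusted p = 0.55). Chaf1a was at 31.2, 36.8 and 38.5 FPKM in CTL with IL-2 and 18.4, 16.9 and 13.9 without it and fell by 1.11 on the log2 scale (SE 0.12, adjusted p = 3.1e-05), with -0.94 without replicate 3 of both CTL groups. Chaf1b was at 28.6, 31.9 and 35.5 FPKM in CTL with IL-2 and 19.4, 18.5 and 16.03 without it, with -0.83 (SE 0.11, adjusted p = 9.6e-05).

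In naïve cells 8 members were below the 20th percentile of all genes, and in the other 4 groups 0 were. Over the 48 genes the log2 fold changes after activation and after IL-2 withdrawal, which come from tables with no library in common, had a Pearson r of -0.60 and a Spearman rho of -0.59, given as a description across genes that share promoter types and libraries. Over the 10637 genes in both tables r was -0.64 and rho -0.69. Of the 44 members that rose on activation 18 (40.9%) fell on withdrawal, while 1075 (42.8%) did of the 2513 genes that rose and were measured in CTL too.

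The libraries of a group differed in the level of the whole module, most so in CTL without IL-2. Replicate 3 of that group was the lowest of the 3 in 45 of the 48 genes and replicate 1 the highest in 44, where 39.9% and 35% of all genes with a mean of at least 1 FPKM had that order. The median ratio of replicate 3 to the mean of the other 2 was 0.796 over the members and 0.997 over all such genes. Without replicate 3 of the deprived CTL 16 members fell, and the median was -0.67. In the TCR group replicate 1 was lowest in 31 members (42.3% of all genes), and in the PI3Kdi group replicate 1 was highest in 36 (32.4%). Those 2 libraries came from one pool of mice, and their summed FPKM had a ratio of 1.14 for PI3Kdi over TCR, against 0.927 and 0.971 in the other pools. In naïve cells and in CTL with IL-2, the median member lay at 0.969 to 1.04 times its group mean in each library.

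**Figure D5:**
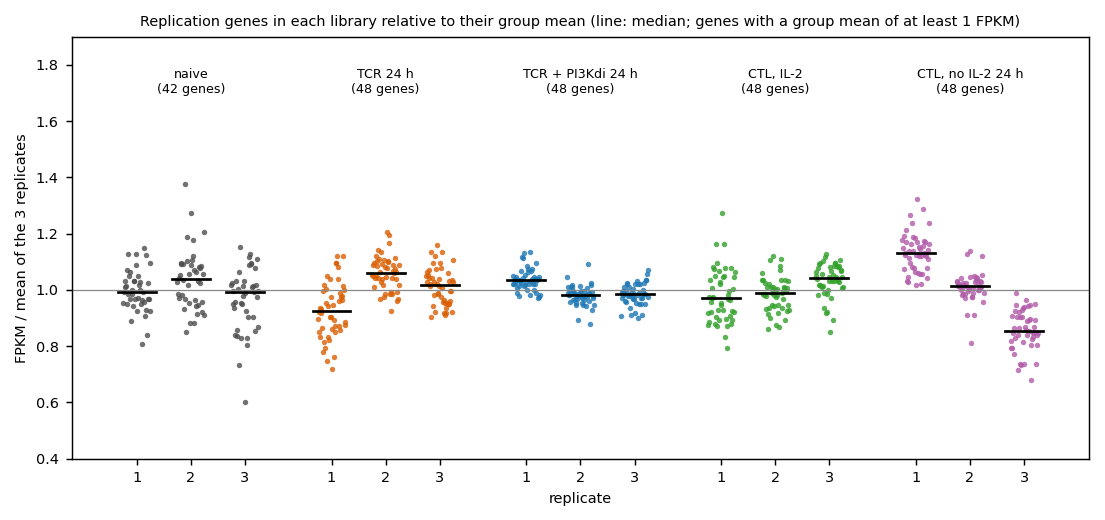
FPKM of each replication gene in a library divided by the mean of the 3 replicates of its group, for genes with a group mean of at least 1 FPKM (42 in naïve cells, 48 elsewhere), with the median as a line. In CTL without IL-2 replicates 1, 2 and 3 have medians of 1.13, 1.01 and 0.854, while the other groups have medians between 0.926 and 1.06.

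Other genes of DNA replication outside the 48 were counted by a list of 35, of which 33 were in the tables. On activation 21 rose and 2 fell, against 25.0% and 23.7% of all genes. With PI3Kdi 0 rose and 0 fell, against 3.04% and 2.10%. On IL-2 withdrawal 1 rose and 8 fell, against 14.3% and 13.9%. Lig1, the ligase that joins Okazaki fragments, went from a mean of 6.23 ± 0.39 FPKM (SD, n = 3) in naïve cells to 111 ± 6.51 after activation, a log2 fold change of 4.14 (adjusted p = 1.7e-11), and had 0.03 (adjusted p = 0.86) with PI3Kdi. Dtl, which targets CDT1 for destruction, had the largest rise of the list, 7.78 (adjusted p = 3.9e-10). Uhrf1, which guides maintenance methylation on new DNA, rose by 5.29 (adjusted p = 1.3e-11) and fell by 1.01 on the log2 scale (adjusted p = 7.2e-05) without IL-2. Clspn, the checkpoint adaptor claspin, rose by 5.93 (adjusted p = 3.1e-10) and had -0.72 (adjusted p = 4.7e-04) without IL-2. Dna2, a flap nuclease, had the largest fall on withdrawal, from 10.6 ± 0.63 to 2.25 ± 0.32 FPKM, or -2.19 (adjusted p = 1.0e-06), after a rise of 6.37 (adjusted p = 3.3e-10) on activation. Ticrr, the origin firing factor treslin, was not analysed here. With PI3Kdi 3 of the 33 passed the adjusted p, all under 2-fold. Of these 2 were higher and 1 lower, where all genes gave 9.35% and 8.19%. Donson, encoding a replication fork protein, had 0.48 (SE 0.10, adjusted p = 0.0096) and Top2b had 0.33 (SE 0.10, adjusted p = 0.038), while Mtbp, encoding a partner of treslin, had -0.33 (SE 0.09, adjusted p = 0.031).

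Of 9 proliferation genes outside the machinery (Mki67, Ccna2, Ccne1, Ccne2, E2f1, Rrm1, Rrm2, Tyms and Tk1), all 9 rose on activation (25.0% of all genes). Their median log2 fold change was 6.78. With PI3Kdi 0 of the 9 rose or fell (3.04% and 2.10% of all genes), and the median was -0.34. Rrm2, the small subunit of ribonucleotide reductase, passed the adjusted p with -0.38 (SE 0.10, adjusted p = 0.027). Without IL-2 6 fell (13.9% of all genes), and Rrm2 went from 231 ± 8.46 to 80.4 ± 13.8 FPKM, -1.54 on the log2 scale (adjusted p = 3.3e-06). Mki67, the gene of the proliferation antigen Ki-67, had -0.14 (adjusted p = 0.24), at 98.1 ± 12.7 FPKM with IL-2 and 88.5 ± 5.02 without. Mki67 and Top2a, both known to peak late in the cycle, were both under 2-fold. So were licensing and helicase genes such as Cdt1 (-0.59), Gmnn (-0.78), Mcm6 (-0.70) and Mcm7 (-0.70). A link to the phase of the cycle was not tested.

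The libraries of all groups carried the markers of CD8 T cells, and a few markers of other cells moved with the groups. A sort is given above for the naïve and 24 h activated cells only, not for CTL. The summed FPKM of Cd8a, Cd8b1, Cd3e, Cd3d, Cd3g and Thy1 ran from 4142 to 4537 in naïve libraries, 1071 to 1271 after activation, 1101 to 1255 with PI3Kdi, 2038 to 2336 in CTL with IL-2 and 2744 to 2883 without. Of 5 B cell markers 4 were in the first table, summing to 20.9 to 26.3 FPKM in naïve, 4.63 to 7.12 in activated and 3.3 to 4.58 in PI3Kdi libraries. In CTL only Cd79b was listed, at 2.74 to 6.3 FPKM with IL-2 and 10.8 to 20.6 without. Cd4 and Zbtb7b summed to 16.8 to 21.4 and 25.6 to 30.2 FPKM in CTL, while in the first table only Zbtb7b was listed, at most 1.16. Of 6 myeloid markers 2 were listed, Itgam and Cd68, at 1.85 to 4.97 FPKM in the first table, 5.36 to 9.34 in CTL with IL-2 and 9.99 to 16.9 without. Of 5 dendritic cell markers 1 was listed in each table, Zbtb46 at up to 0.64 FPKM and Itgax at 0.21 to 0.39 with IL-2 and 3.67 to 5.17 without. Of 2 NK markers Klrb1c was listed in CTL alone, at 1.2 to 1.88 and 2.17 to 3.41 FPKM, and 0 of 4 erythroid markers were listed. The part of these markers in the values of the replication genes was not tested.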

How the data were processed

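The authors deposited FPKM tables. To make them, the authors state that reads of a stranded mRNA library were aligned with STAR 2.5.2b to mm10, counted per RefSeq gene with Subread 1.5.1, filtered for low counts, scaled by TMM in edgeR and divided by exon length. The strand setting was not given in the sources used here. For the CTL table the same steps were assumed. Values have 2 decimals, and blank cells of the first table were read as 0. Less RNA was supplied for naïve samples than for the others. With FPKM in place of counts, limma-voom as in the study could not be run, and the test was limma 3.58.1 in R 4.3.3 on log2(FPKM + 0.1), with an intensity trend, the 9 libraries of the first table in one fit and the 6 CTL libraries in another. P-values were adjusted by Benjamini-Hochberg over all genes of a table. Fits were tested on simulated data. Python 3.11.15, pandas 2.3.3, numpy 2.4.6 and matplotlib 3.10.9 were used.

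The 48 members and all gene lists were chosen with earlier results of these data known. The list of proliferation genes held 1 more gene that is not reported here, and its counts cover the other 9. Values are given by library for the members with the largest and smallest estimate of each role in each comparison, for groups of 2 genes and for the 15 largest falls on IL-2 withdrawal, and a few more were named after their values were seen. Of the chosen promoters, those lying inside annotated transcripts were left out and Chaf1a and Mcm10 taken instead. Where a gene has several windows the first was used. Gene spans are from RefSeq (GRCm38), and exon overlaps from GENCODE M21, which concern 15 members on the opposite strand and 5 on the same strand.

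Between TCR and PI3Kdi and between the CTL groups, same-numbered libraries deviated together from their group means. Correlations were 0.20 to 0.51 and 0.12 to 0.26, against -0.18 to 0.23 between naïve and activated libraries. The shared pools and the labels mark a pairing there, but the main fits had no block for it. The replicate block was fitted as an alternative only. The 3 comparisons of the first table share libraries. Alternatives were pseudocounts of 0.01 and 1, a filter at a mean of 1 FPKM, median scaling, the replicate block, no trend, fitting only the groups compared, leaving out each replicate, and fold limits of 1.5 or none. The depth per library is not stated. The spacing of the lowest FPKM gave a rough 9.7 to 14.5 M reads, from which no limit of detection was taken. With 3 against 3 an exact permutation test of one value cannot go below 0.1, and none was used.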

Additional observations from a re-analysis of the deposited data

How the results depend on the processing

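No member reversed its direction of a call under any alternative. The number of members called was 43 to 44 for activation, 0 with PI3Kdi, 43 to 44 for PI3Kdi against naïve and 14 to 20 for IL-2 withdrawal when each replicate was left out in turn. Calls that changed were those of Gins4 on activation (0.97 without replicate 1) and with PI3Kdi against naïve (0.97 without replicate 1, 0.99 without replicate 3 and with a pseudocount of 1), of Mcm5, Rfc5, Pole2 and Chaf1a on withdrawal (lost without replicate 3), and of Pcna and Cdc7, gained without replicate 2 (Pcna also without replicate 1). Pole2 was also lost with a pseudocount of 1 (-0.92) and with median scaling (-0.98). The 2 alternatives without replicate 1 of the TCR group and without replicate 3 of the deprived CTL were added after the data were seen, and gave 581 genes for PI3Kdi against TCR and 16 members on withdrawal.

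With no fold limit the calls over all genes were 9096 for activation, 1975 for PI3Kdi against TCR, 8906 for PI3Kdi against naïve and 8056 for withdrawal, and the members called were 4 with PI3Kdi and 47 on withdrawal. A fold limit of 1.5 gave 1120 genes with PI3Kdi, and 5657 genes and 36 members on withdrawal. For PI3Kdi against TCR, a pseudocount of 1 gave 311 genes, leaving out each replicate 323 to 574 genes, and members at an adjusted p below 0.05 fell from 4 to between 0 and 1. Mcm2 passed in 9 of 11 alternatives, Dbf4 in 8, Pole2 in 7 and Orc6 in 6. Median scaling moved the median of all genes by 0.12 for activation, that of the members to 2.89, the naïve sums to 744 FPKM for all members and 167 for MCM2-7, and the share of higher calls from 51.3% to 55.8%. With the replicate block 44, 0, 44 and 18 members were called in the 4 comparisons, the same counts as without it. The pairing changed the adjusted p only of Orc6 with PI3Kdi (0.059) and Rpa1 on withdrawal (0.057) across 0.05. The depth is only roughly known, so no counting error was set beside the small differences seen with PI3Kdi.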

Other observations

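A few replication genes moved against the rest of the machinery. Top2b, the other topoisomerase II isoform beside Top2a, went from 137 ± 6.73 FPKM (SD, n = 3) in naïve cells to 57.4 ± 7.32 after activation. Its log2 fold change was -1.26 (limma, adjusted p = 2.4e-07), while Top2a rose by 7.15. With PI3Kdi against TCR alone Top2b had 0.33 (adjusted p = 0.038), and in CTL it was at 52.9 ± 5.66 FPKM with IL-2 and 99.6 ± 6.03 without, 0.91 (adjusted p = 1.9e-05), under 2-fold. Pold4, the smallest subunit of polymerase δ, fell by 1.57 on the log2 scale (adjusted p = 1.5e-06) on activation, from 36.4 ± 4.67 to 12.3 ± 2.39 FPKM. It rose by 1.45 (adjusted p = 1.6e-05) when IL-2 was removed, from 29.8 ± 5.18 to 81.1 ± 12.6 FPKM, while Pold2, of the same enzyme, fell by 1.62 on the log2 scale.

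The translesion polymerases, which copy damaged bases, moved in both directions on activation. Of 6 listed genes 5 were in the tables, of which 1 rose and 2 fell. Of all genes 25.0% rose and 23.7% fell, and 5 genes are too few to tell from those shares. Polh rose by 1.43 (adjusted p = 8.7e-08), to 28.1 ± 2.05 FPKM. Poli fell by 1.74 on the log2 scale (adjusted p = 7.0e-07), to 5.81 ± 1.28 FPKM, and Rev3l fell by 1.07 on the log2 scale (adjusted p = 2.2e-05), to 6.77 ± 0.74 FPKM. In CTL 0 of the 5 were past the limits without IL-2, where 14.3% of all genes rose and 13.9% fell. Their summed FPKM was 54.7 to 57.7 in naïve and 56.3 to 60.8 in activated libraries.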
